A study of Mus musculus with 12 samples.

Results

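Aminoacyl-tRNA synthetases join each amino acid to its transfer RNA and so supply every step of protein synthesis. The transcripts described here are 37 of the 22416 genes in the count table: 19 encode cytosolic enzymes or their subunits, 2 encode the scaffold proteins Aimp1 and Aimp2, and 16 encode mitochondrial enzymes. They were taken as the rows whose gene symbol, ignoring case and allowing a trailing 1, was that of a listed member. All 37 were found, and all passed the filter on low counts. The lowest count of any member in any library was 9, for Wars2.

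Mammalian cells keep separate synthetases, encoded by different nuclear genes, for the cytosol and the mitochondria, and the mitochondrial ones mostly carry the suffix 2. Gars and Kars are exceptions, since each gene makes both forms. Several cytosolic enzymes sit with Aimp1 and Aimp2 in the multi-tRNA synthetase complex. Uncharged tRNA activates the kinase Gcn2, which phosphorylates eIF2α, the initiation factor subunit encoded by Eif2s1. Protein synthesis then slows as a whole while the Atf4 mRNA is translated more, and the known targets of this transcription factor include amino acid synthesis enzymes, amino acid transporters and part of the cytosolic synthetases.

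Mouse embryonic stem cells were used for RNA sequencing to ask how eIF2α phosphorylation bears on naive pluripotency. There were 4 groups of 3 libraries: eIF2α A/A knock-in (KI) cells in LIF, eIF2α +/+ wild-type (WT) cells in LIF, KI cells in LIF/2i and WT cells in LIF/2i. The A allele replaces the phosphorylated serine with alanine, so KI cells cannot phosphorylate eIF2α at that site. For 6 days all cells grew without serum, in a medium holding leukaemia inhibitory factor (LIF) alone or LIF together with the MEK inhibitor PD0325901 and the GSK3 inhibitor CHIR99021 (LIF/2i). The labels name neither the clone nor the culture behind a replicate, so p-values measure only how far these samples spread, and that spread may be technical. RNA came from the supernatant of a spun lysate, and RNA left in the pellet was not measured.

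Libraries held 2307219 to 9713857 counts, with the shallowest group being KI cells in LIF at 2307219 to 4609908. WT replicates 1 and 3 in LIF differed by less than the sampling noise, so their mean stands for both, and the data comprise 11 samples with n = 2 for WT cells in LIF. In every list of values for that group, the mean of this pair comes before replicate 2. Summed levels of 6 stem cell markers were 3905 to 4019 TPM (a level per coding length) in KI cells in LIF, 3226 to 3503 in WT cells in LIF, 4372 to 4876 in KI cells in LIF/2i and 4059 to 4793 in WT cells in LIF/2i. Eif2s1 had 37.0 ± 1.00 CPM (SD, n = 3) in KI cells in LIF, 30.6 ± 2.96 (SD, n = 2) in WT cells in LIF, 44.2 ± 13.3 (SD, n = 3) in KI cells in LIF/2i and 25.7 ± 2.32 (SD, n = 3) in WT cells in LIF/2i. CPM are counts scaled to the library total with the trimmed mean of M values (TMM). The point mutation cannot be read from gene counts, so this level is no check of the genotype labels. Transcripts of 4 Y-linked genes summed to 1.51 to 42.2 CPM in the KI samples and 46.2 to 276 CPM in the WT samples. These sums also differed within each genotype. KI replicate 1 had 36 CPM in LIF and 42.2 in LIF/2i, against 1.51 to 3.81 in the other KI samples. WT replicate 2 had 75.0 CPM in LIF and 46.2 in LIF/2i, against 157 to 276 in the other WT samples. A difference between KI and WT cells therefore cannot be told apart from whatever else separates these libraries.

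Levels per coding length ordered the family by compartment. The mean over the 11 samples of a cytosolic enzyme was between 112 TPM for Iars and 403 TPM for Gars, with a median of 210 TPM. Mitochondrial enzymes lay between 12.3 TPM for Wars2 and 117 TPM for Tars2, with a median of 44.9 TPM. Tars2, the mitochondrial threonyl enzyme, was thus the one mitochondrial member whose mean lay above that of the lowest cytosolic gene. The scaffold genes Aimp1 at 139 TPM and Aimp2 at 130 TPM lay within the cytosolic range.

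Gars encodes the glycyl enzyme of both compartments and had the highest mean level of the family, but also a wide range, between 175 and 766 TPM. Dars, the aspartyl enzyme, had the next highest mean, 338 TPM, with samples between 284 and 393 TPM. Iars2, the mitochondrial isoleucyl enzyme, followed Tars2 among the mitochondrial genes with 88.4 TPM and a range of 69.3 to 114 TPM. The ranges of most neighbours in this order overlapped, so single ranks are not resolved.

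**Figure D1:**
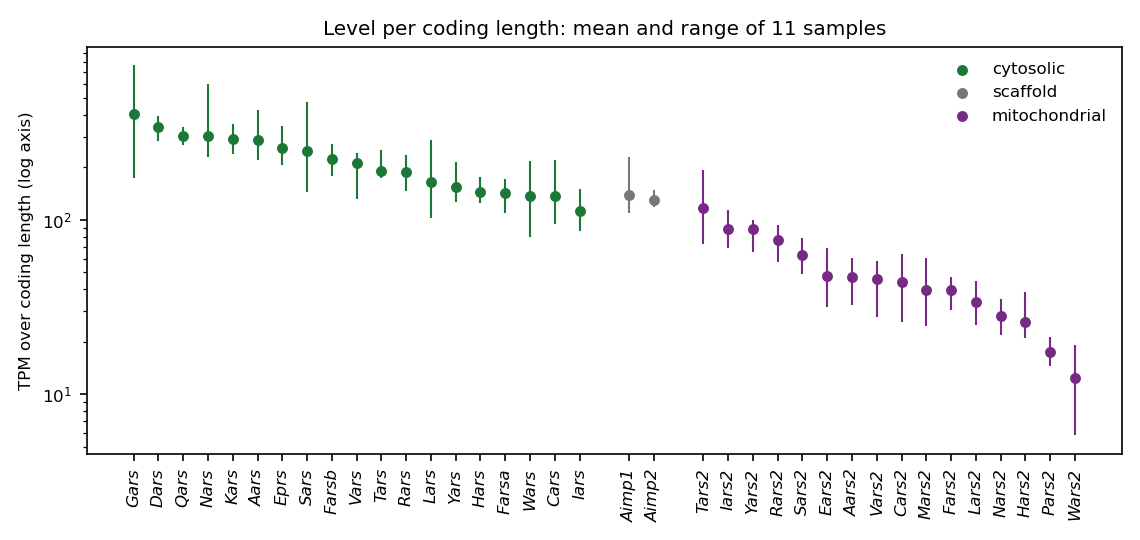
Mean level of each synthetase and scaffold gene in TPM over coding length, on a log axis, with vertical lines for the lowest and highest of the 11 samples. Cytosolic genes have means of 112 to 403 TPM and mitochondrial genes 12.3 to 117 TPM.

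Promoters were searched for TGATGNAA on both strands, the core of the element bound by C/EBP and ATF factors, in the 250 bases before to 50 bases after each RefSeq start (GRCm38.p6). A window was found for 12 cytosolic, 2 scaffold and 14 mitochondrial genes. The letters occurred in 5 of 12 cytosolic windows (41.7%), in 0 of 2 scaffold windows and in 0 of 14 mitochondrial windows, against 4.51% of the 27025 genes of the table. Among 25 genes of a panel of known ATF4 targets in amino acid supply, 11 (44%) held them. Windows of 80 bases around the match are shown for the cytosolic genes that held the letters, together with those of Sars and Mars2, which were called between media below and held no match. Capitals mark the motif letters, and the sequences read 5′ to 3′ on the strand of the gene.
Aars, chr8:111033692-111033771 (+): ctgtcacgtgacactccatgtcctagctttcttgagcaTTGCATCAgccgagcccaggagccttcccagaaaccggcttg
Gars, chr6:55037936-55038015 (+): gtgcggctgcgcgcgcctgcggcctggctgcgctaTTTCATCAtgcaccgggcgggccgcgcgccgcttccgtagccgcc
Iars, chr13:49682065-49682144 (+): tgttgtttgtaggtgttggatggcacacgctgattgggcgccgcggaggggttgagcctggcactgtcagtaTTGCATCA
Tars, chr15:11399644-11399723 (-): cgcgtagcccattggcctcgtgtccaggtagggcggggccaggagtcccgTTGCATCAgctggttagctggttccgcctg
Yars, chr4:129189838-129189917 (+): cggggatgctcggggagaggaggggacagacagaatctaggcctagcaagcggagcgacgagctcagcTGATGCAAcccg
Sars, chr3:108445245-108445324 (-): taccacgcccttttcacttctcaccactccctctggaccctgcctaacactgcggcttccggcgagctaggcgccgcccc
Mars2, chr1:55237112-55237191 (+): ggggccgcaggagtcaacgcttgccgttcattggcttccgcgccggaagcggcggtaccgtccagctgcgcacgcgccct

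In Aars, Gars, Iars and Tars the match lay on the strand opposite to the gene, and in Yars on the gene's own strand. It began 112 bases before the start in Aars, 30 before in Gars and 15 before in Tars. In Iars it began at base 8 after the start and in Yars at base 4, and Aars held another match, at base 10, outside the printed window. These matches are a description of letters and not of binding. Cars, Hars, Lars, Nars, Rars, Vars, Wars, Hars2 and Pars2 had no entry in the table.

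In WT cells, transcripts of 7 cytosolic synthetases were higher in LIF than in LIF/2i. They were those for serine, asparagine, leucine, cysteine, alanine, tyrosine and isoleucine, with log2 differences of 1.14 to 0.51. No cytosolic enzyme was lower, and of the mitochondrial enzymes 1, Mars2, was lower and none higher. A gene was called at an adjusted p under 0.05 in edgeR's quasi-likelihood test (Benjamini-Hochberg, 13229 genes), and 6.3% of all genes tested were called higher and 6.65% lower. Of the cytosolic genes 17 of 19 had a log2 difference above 0 and the median was 0.33, against 0.01 over all genes. The samples of the 2 media did not overlap, with LIF higher, for 12 of 19 cytosolic genes, against 24.2% of all genes. DESeq2 called 8 cytosolic genes higher and Mars2 lower, where it called 7.71% of all genes higher and 9.02% lower. By limma-voom 7 cytosolic genes were higher and Mars2 lower, with 6.84% and 6.95% of all genes.

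Nars, which charges asparagine (transcript ENSMUST00000237400), had 618 and 428 CPM in WT cells in LIF and 255, 255 and 243 CPM in WT cells in LIF/2i. The media did not overlap in WT cells, and the lower LIF sample was still far above every LIF/2i sample. Its log2 difference was 1.06 ± 0.15 (SE), a 2.08-fold higher level in LIF (edgeR adjusted p = 0.00171). In KI cells it had 274, 288 and 281 CPM in LIF and 248, 267 and 294 CPM in LIF/2i. Those values overlapped between media, and the log2 difference was 0.06 ± 0.14 (edgeR adjusted p = 0.856).

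Sars, the seryl enzyme (ENSMUST00000102625), had 439 and 466 CPM in WT cells in LIF and 161, 242 and 214 CPM in WT cells in LIF/2i. It showed the largest difference of the family between media in WT cells, 1.14 ± 0.19 on the log2 scale or 2.20-fold (edgeR adjusted p = 0.00321). KI cells had 187, 253 and 226 CPM in LIF and 151, 200 and 191 CPM in LIF/2i, which overlapped. The KI log2 difference was 0.30 ± 0.17 (edgeR adjusted p = 0.334).

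Cars, which charges cysteine (ENSMUST00000010899), had 338 and 277 CPM in WT cells in LIF and 152, 186 and 164 CPM in WT cells in LIF/2i. The media were apart in WT cells, with a log2 difference of 0.88 ± 0.15 (edgeR adjusted p = 0.0038). KI cells had 162, 203 and 206 CPM in LIF and 211, 224 and 220 CPM in LIF/2i. There the LIF samples were all below the LIF/2i samples, but the difference of -0.20 ± 0.14 did not pass the test (edgeR adjusted p = 0.435).

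Aars, the alanyl enzyme (ENSMUST00000034441), had 757 and 650 CPM in WT cells in LIF and 410, 496 and 397 CPM in WT cells in LIF/2i. Both LIF samples were above the 3 LIF/2i samples, and the log2 difference was 0.70 ± 0.13 (edgeR adjusted p = 0.0065). KI cells had 498, 462 and 474 CPM in LIF and 505, 511 and 542 CPM in LIF/2i, with a log2 difference of -0.12 ± 0.12 (edgeR adjusted p = 0.617).

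Lars and Iars charge the branched-chain amino acids leucine and isoleucine and are subunits of the multi-tRNA synthetase complex. Lars (ENSMUST00000097590) had 626 and 433 CPM in WT cells in LIF and 291, 264 and 218 CPM in WT cells in LIF/2i, which did not overlap. Its log2 difference was 1.03 ± 0.21 (edgeR adjusted p = 0.00907). In KI cells it had 328, 389 and 447 CPM in LIF and 259, 372 and 381 CPM in LIF/2i, which overlapped. Iars (ENSMUST00000165316) had 350 and 289 CPM in WT cells in LIF and 224, 210 and 238 CPM in WT cells in LIF/2i, with no overlap and a log2 difference of 0.51 ± 0.13 (edgeR adjusted p = 0.0253). KI cells had 248, 266 and 273 CPM of Iars in LIF and 251, 267 and 286 CPM in LIF/2i, nearly the same values in both media.

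Yars, the tyrosyl enzyme (ENSMUST00000106054), had 224 and 194 CPM in WT cells in LIF and 138, 148 and 131 CPM in WT cells in LIF/2i. The media were apart, with a log2 difference of 0.59 ± 0.16 (edgeR adjusted p = 0.0293). KI cells had 137, 173 and 186 CPM in LIF and 139, 171 and 157 CPM in LIF/2i, which overlapped. The called genes came from both structural classes of synthetase: Cars, Iars, Lars and Yars belong to class I, and Aars, Nars and Sars to class II.

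Mars2, the mitochondrial methionyl enzyme (ENSMUST00000061334), went the other way and fell in LIF. It had 30.2 and 26.7 CPM in WT cells in LIF and 68.6, 55.4 and 33.1 CPM in WT cells in LIF/2i. Both LIF samples were below all LIF/2i samples, although LIF/2i replicate 3 came close to them, and the log2 difference was -0.89 ± 0.25 (edgeR adjusted p = 0.0364). In KI cells Mars2 had 37.7, 32.1 and 33.9 CPM in LIF and 57.2, 55.0 and 55.7 CPM in LIF/2i. The KI media were clearly apart, with a log2 difference of -0.70 ± 0.22 that missed the threshold (edgeR adjusted p = 0.0752). With the replicate number as a block it passed, at -0.69 in the KI libraries alone (edgeR adjusted p = 0.0116). Over 12 libraries the block gave -0.69 (edgeR adjusted p = 0.0433), with WT LIF replicates 1 and 3 entered as separate samples.

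**Figure D2:**
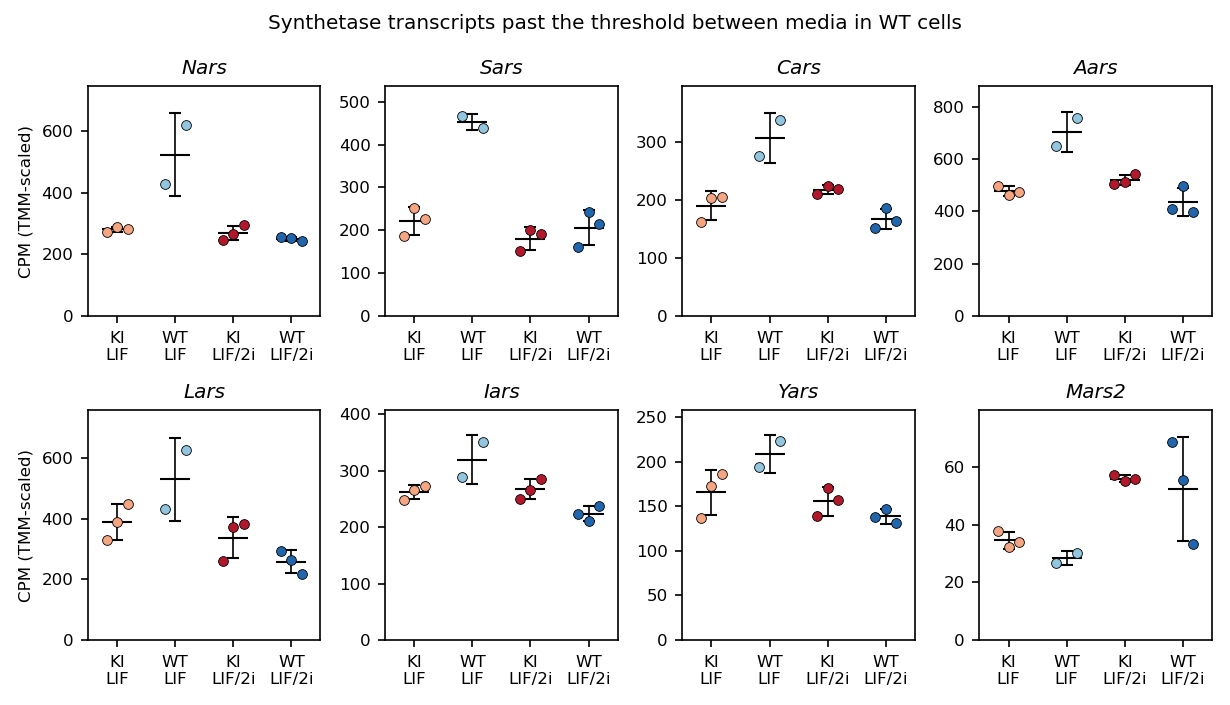
TMM-scaled CPM of the 8 members called between media in WT cells, for KI and WT cells in LIF and KI and WT cells in LIF/2i. Points are samples, with replicates 1 to 3 from left to right (WT in LIF has replicate 2 and then the mean of 1 and 3), and bars are the mean with SD (n = 3, and n = 2 for WT in LIF). For the 7 cytosolic genes WT cells in LIF stand above WT cells in LIF/2i, and for Mars2 below.

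The calls in WT cells differed in how far they rested on single libraries. Cars and Nars were called in all 24 alternative analyses, Sars in 23, Aars and Lars in 22, Iars in 19, Yars in 18 and Mars2 in 16. Leaving out WT LIF/2i replicate 1 ended the calls of Iars, Yars and Mars2 (adjusted p = 0.0802, 0.0905 and 0.137), as did leaving out WT LIF/2i replicate 2 (0.0986, 0.0614 and 0.0892) or WT LIF replicate 2 (0.0588, 0.0927 and 0.234). Yars also missed the threshold when WT LIF/2i replicate 3 was left out, at an adjusted p of 0.0658. Mars2 was also lost without KI LIF replicate 2 (0.0502) or replicate 3 (0.0555). With WT LIF represented by replicate 2 alone, Cars, Nars and Sars were called and Aars, Lars, Iars, Yars and Mars2 were not (adjusted p = 0.0764, 0.116, 0.246, 0.216 and 0.131).

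Wars and Gars came near the call. Wars, the tryptophanyl enzyme (ENSMUST00000161154), had 142 and 126 CPM in WT cells in LIF and 81.5, 89.1 and 69.0 CPM in WT cells in LIF/2i, with no overlap. Its log2 difference was 0.74 ± 0.24 (edgeR adjusted p = 0.0622). Gars (ENSMUST00000003572) had 1029 and 738 CPM in WT cells in LIF and 466, 490 and 456 CPM in WT cells in LIF/2i, also with no overlap. Its log2 difference of 0.91 ± 0.35 had adjusted p = 0.11 by edgeR.

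In both genes KI replicate 1 stood apart from the other KI libraries in both media, and the groups share 1 estimate of the spread. Gars had 288 CPM in KI LIF replicate 1, against 583 and 609 CPM in replicates 2 and 3. In LIF/2i it had 248 CPM in KI replicate 1, against 566 and 563 CPM in replicates 2 and 3. Wars was high in the same library, with 198 CPM in KI LIF replicate 1, against 119 and 118 CPM in replicates 2 and 3. In LIF/2i Wars had 178 CPM in KI replicate 1, against 123 and 124 CPM in replicates 2 and 3. Without KI replicate 1 in both media, an alternative chosen after seeing the data, both were called higher in LIF in WT cells, Gars at 0.90 (edgeR adjusted p = 0.00189) and Wars at 0.73 (0.00448).

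The other 10 cytosolic genes had log2 differences of -0.27 to 0.33 in WT cells, and none was called. Dars had 312 and 287 CPM in WT cells in LIF and 381, 344 and 354 CPM in WT cells in LIF/2i, with a log2 difference of -0.27 ± 0.15 (edgeR adjusted p = 0.269). KI cells had 268, 276 and 313 CPM of Dars in LIF and 293, 301 and 375 CPM in LIF/2i. Qars, which charges glutamine, had 400 and 408 CPM in WT cells in LIF and 490, 513 and 376 CPM in WT cells in LIF/2i, which overlapped. In KI cells Qars had 414, 404 and 402 CPM in LIF and 495, 462 and 477 CPM in LIF/2i, with no overlap and a log2 difference of -0.23 ± 0.13 (edgeR adjusted p = 0.3). Dars and Qars were thus the 2 cytosolic genes below 0 in WT cells.

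The cytosolic genes were also counted by what is reported of them elsewhere, from a list made with earlier results of these data known. The 11 synthetases reported as ATF4-dependent in other work, Aars, Cars, Eprs, Gars, Iars, Lars, Nars, Sars, Tars, Wars and Yars, had a median log2 difference of 0.74 in WT cells, and 7 were called. The other 8 cytosolic genes had a median of 0.12, and 0 were called by edgeR, with 1, Rars, higher at an unadjusted p under 0.05, against 13.5% of all genes, and 0 called by DESeq2 or limma-voom. Of the 9 members in the multi-tRNA synthetase complex, Aimp1 and Aimp2 among them, 2, Iars and Lars, were called and the median was 0.18. Beside the calls in these lists, 6.3% of all genes were called higher by edgeR, and the median over all genes was 0.01. Summed over the 19 cytosolic genes, the level was 4982 to 5791 TPM in the WT samples in LIF. In the WT samples in LIF/2i it was 3713 to 3893 TPM.

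The scaffold genes were not called between media. Aimp2 (ENSMUST00000031613) had 76.2, 75.9 and 77.0 CPM in KI cells in LIF, 82.0 and 77.2 in WT cells in LIF, 77.2, 89.5 and 75.9 in KI cells in LIF/2i and 73.6, 81.3 and 69.9 in WT cells in LIF/2i. All 11 samples lay within a narrow band. Aimp1 (ENSMUST00000029663) had 67.9, 67.4 and 69.0 CPM in KI cells in LIF, 80.1 and 134 in WT cells in LIF, 68.9, 66.1 and 80.6 in KI cells in LIF/2i and 72.5, 140 and 69.9 in WT cells in LIF/2i. WT replicate 2 stood apart in both media. Aimp2 shares 386 coding bases with Eif2ak1 on the opposite strand, and since the handling of strand is not given in the sources used here, reads of the pair cannot be told apart.

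Tars2 had the same library pattern as Aimp1. It had 161, 155 and 184 CPM in KI cells in LIF, 128 and 257 in WT cells in LIF, 132, 159 and 135 in KI cells in LIF/2i and 105, 237 and 95.5 in WT cells in LIF/2i, with WT replicate 2 high in both media. Iars2 had 172, 183 and 174 CPM in KI cells in LIF, 160 and 167 in WT cells in LIF, 224, 162 and 148 in KI cells in LIF/2i and 151, 180 and 127 in WT cells in LIF/2i. Its genotypes overlapped in LIF/2i, while in LIF all KI samples lay above both WT samples (log2 difference 0.11, edgeR adjusted p = 0.89). The other mitochondrial genes apart from Mars2 had log2 differences between media of -0.41 to 0.35 in WT cells. The median of the 16 mitochondrial genes was -0.04 in WT cells. Coding bases of Cars2, Vars2, Nars2, Hars and Hars2 also overlap another gene on the opposite strand, by 282, 296, 83, 90 and 90 bases, and their values are uncertain to that extent.

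**Figure D3:**
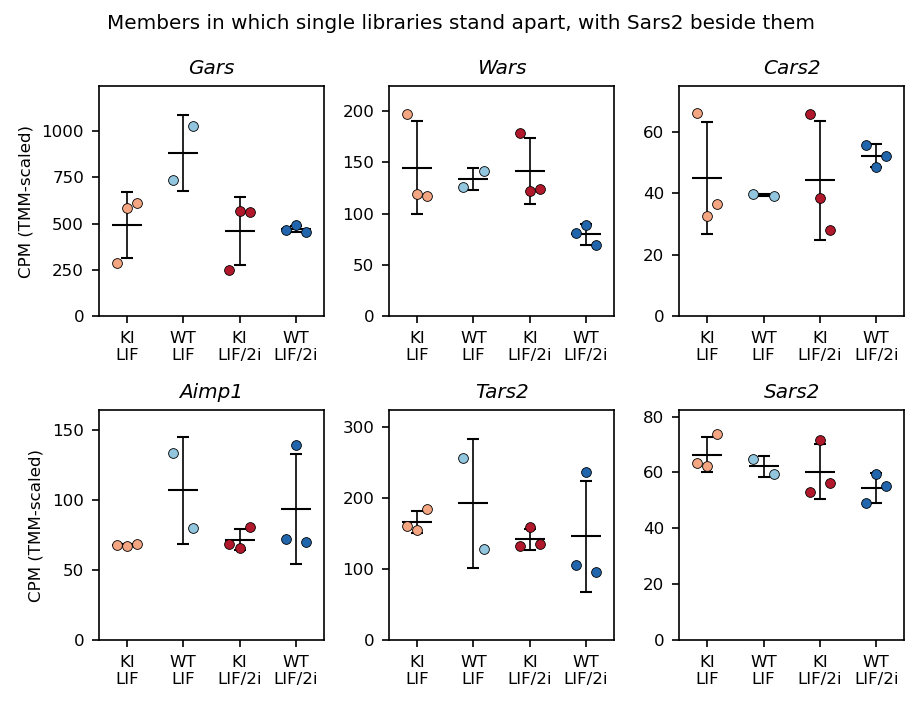
TMM-scaled CPM of Gars, Wars, Cars2, Aimp1 and Tars2, in which single libraries stand apart, with Sars2 beside them, for KI and WT cells in LIF and in LIF/2i. Points are samples, in the order of replicates 1 to 3 within a group (WT in LIF has replicate 2 and then the mean of 1 and 3), and bars are the mean with SD. KI replicate 1 is low in Gars and high in Wars and Cars2, and WT replicate 2 is high in Aimp1 and Tars2.

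In KI cells, 0 of 37 members were called between LIF and LIF/2i by edgeR, where 4.05% of all genes were called higher and 5% lower. At an unadjusted p under 0.05 there was 1, Mars2, lower, against 11.3% of all genes higher and 12.4% lower. DESeq2 called 1, again Mars2, lower, where it called 5.85% of all genes higher and 6.47% lower. limma-voom called 0 members, with 4.32% of all genes higher and 3.72% lower. The cytosolic log2 differences spanned -0.23 to 0.30, with a median of 0.09, and the mitochondrial median was -0.03. Fars2, the mitochondrial phenylalanyl enzyme, had 35.7, 35.3 and 27.5 CPM in KI cells in LIF and 42.7, 41.7 and 40.1 CPM in KI cells in LIF/2i, with no overlap and a log2 difference of -0.33 ± 0.20 (edgeR adjusted p = 0.341). Its WT values were 31.6 and 32.0 CPM in LIF and 27.8, 42.1 and 27.1 CPM in LIF/2i.

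**Figure D4:**
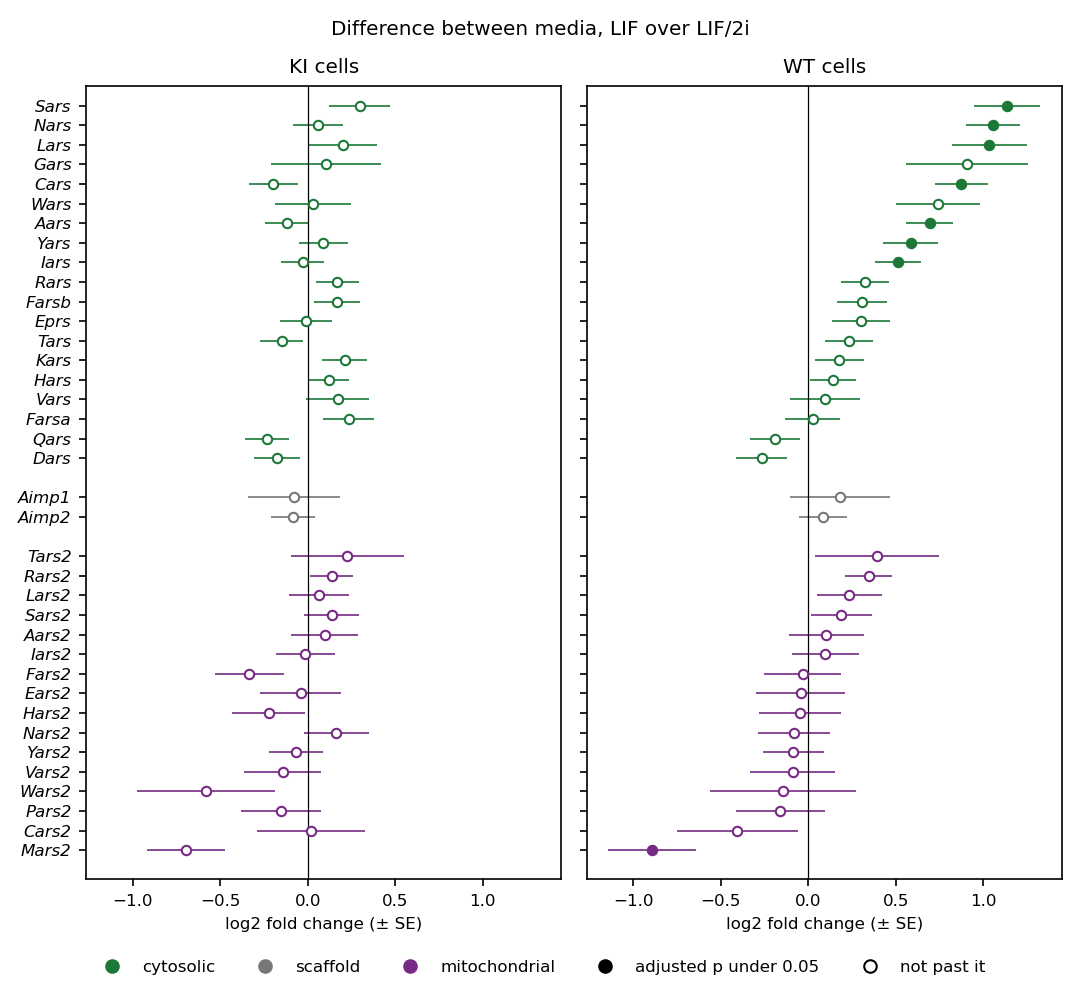
Log2 fold change between media, LIF over LIF/2i, with its SE, for each member in KI cells and in WT cells. Filled points passed an adjusted p of 0.05 and open points did not. In WT cells 7 cytosolic genes are filled above 0 and Mars2 is filled below 0, and in KI cells no point is filled.

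Markers of fibroblasts moved with the medium in the same libraries, 5 of 6 of them upward in LIF. Pdgfrb went the other way, with log2 differences of LIF from LIF/2i of -0.51 in KI cells and -0.84 in WT cells. edgeR called neither of these differences, and it did not call Thy1 in KI or WT cells. Of 6 markers, edgeR called 3 higher in LIF in KI cells, against 4.05% of all genes, and 4 in WT cells, against 6.3%. limma-voom called 1 and 2 of them. Their summed level was 91.0 to 166 TPM in KI cells in LIF, 33.6 and 307 TPM in WT cells in LIF, 18.2 to 27.9 TPM in KI cells in LIF/2i and 7.85 to 10.9 TPM in WT cells in LIF/2i, where Col3a1 was at 0. Replicate 2 was the WT LIF sample at 307 TPM. For the cytosolic members WT LIF replicate 2 was the lower of the 2 LIF samples in 6 of the 7 called genes, Sars being the exception. Without that replicate the cytosolic median in WT cells was 0.45, with 1 WT LIF sample left. Any part of the fibroblast markers in the levels of these genes was not tested. Of the stem cell markers 3 of 6 were called lower in LIF in KI cells and 2 of 6 in WT cells, against 5% and 6.65% of all genes.

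Summed levels of trophectoderm and primitive endoderm markers were highest in WT cells in LIF. The 5 trophectoderm markers with a coding length were summed, and most of the level was Tfap2c. In LIF the sum was 177 to 224 TPM in KI cells and 294 to 319 TPM in WT cells. In LIF/2i it was 83.9 to 224 TPM in KI cells and 125 to 163 TPM in WT cells. Of 6 listed markers 4 were tested. In WT cells all 4 had LIF samples apart from and above the LIF/2i samples, against 24.2% of all genes. Their median log2 difference was 1.35 and 1, Krt7, was called higher (edgeR adjusted p = 0.00557), against 6.3% of all genes. In KI cells their median was 0.13 and 0 were called, with 0 at an unadjusted p under 0.05. Of all genes 4.05% and 11.3% were higher by these measures in KI cells. Cdx2 and Elf5 were under the filter, at no more than 1.67 and 0.317 CPM in any sample. The 6 primitive endoderm markers summed to 3.93 to 15.1 TPM in KI cells in LIF, 20.1 and 25.1 TPM in WT cells in LIF, 6.29 to 7.97 TPM in KI cells in LIF/2i and 8.04 to 17.5 TPM in WT cells in LIF/2i. Of these 4 were tested, all with a log2 difference above 0 between media in WT cells (median 0.71). edgeR called 0, with 1 at an unadjusted p under 0.05, against 6.3% and 13.5% of all genes higher. The part of these 4 marker lists in the differences was not tested. In these bulk samples, fewer cells of a type and less RNA per cell cannot be told apart.

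In LIF, KI cells were set against WT cells to ask whether the allele bears on these levels. edgeR called 0 of 37 members, where it called 0.0151% of all genes higher and 0.129% lower. At an unadjusted p under 0.05 there were 7 members lower in KI cells, namely Nars, Sars, Cars, Aars, Gars, Tars and Aimp1, and 0 higher, against 5.73% of all genes lower and 4.99% higher. DESeq2 called 4 lower, Aars, Cars, Nars and Sars, where it called 1% of all genes lower and 0.762% higher. limma-voom called 0 members, with 0.068% of all genes lower and 0.0151% higher. The tested trophectoderm markers had log2 differences below 0 in the same contrast, all 4 with KI samples apart from and below WT samples, at a median log2 difference of -1.55. The 4 tested primitive endoderm markers had a median of -1.53, and 3 of them were apart with KI lower. Of all genes 15.9% were apart in that direction. Of these 8 markers edgeR called 0, with 5 lower at an unadjusted p under 0.05, and DESeq2 called 1, a primitive endoderm marker, lower. Their part in the differences of the synthetases was not tested. The WT samples are those of the medium comparison, so the same WT levels in LIF enter both results.

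Nars had 274, 288 and 281 CPM in KI cells in LIF, all below the 618 and 428 CPM of WT cells in LIF. The log2 difference of KI from WT was -0.90 ± 0.15, just over the threshold (edgeR adjusted p = 0.0519), and over 24 alternatives the adjusted p lay between 0.000114 and 0.377, with 10 of them under 0.05. It was called without KI LIF/2i replicate 1 (0.026), without KI LIF/2i replicate 3 (0.0385) and without WT LIF replicate 2 (0.0303).

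Sars had 187, 253 and 226 CPM in KI cells in LIF and 439 and 466 CPM in WT cells in LIF, with a wide gap between the groups. The log2 difference was -1.03 ± 0.19 (edgeR adjusted p = 0.0703; 0.000683 to 0.517 over 24 alternatives, 7 of them under 0.05). It was called without KI LIF/2i replicate 1 (0.026). Cars at -0.69 ± 0.15 (edgeR adjusted p = 0.119) and Aars at -0.56 ± 0.14 (0.149) also had all KI samples below both WT samples. Each was called in 3 of 24 alternatives: DESeq2, 12 libraries counted separately and the replicate block over 12 libraries. The fits of 12 libraries enter WT LIF replicates 1 and 3 as separate samples, although these differed by less than the sampling noise.

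The 19 cytosolic genes had a median log2 difference of -0.28, with 14 below 0, against a median of 0.00 over all genes. The groups did not overlap, with KI lower, for 8 cytosolic genes, against 15.9% of all genes. All 8 were among the 11 reported as ATF4-dependent, whose median was -0.45, while that of the other 8 cytosolic genes was -0.003. Since that list was made with earlier results of these data known, the split is only a description. The mitochondrial median was 0.12, with 13 of 16 genes above 0, and 6 of 16 had all KI samples above both WT samples, against 15.9% of all genes. Aimp1 had a log2 difference of -0.65 ± 0.29 (edgeR adjusted p = 0.449), which was -0.24 without WT LIF replicate 2.

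In LIF/2i, KI cells and WT cells also differed in 0 of 37 members by edgeR, where 0.975% of all genes were called higher and 1.24% lower. At an unadjusted p under 0.05, 4 of 37 members were higher in KI cells, Wars, Rars2, Cars and Hars2, and 0 were lower. The higher share is near the 10.8% of all genes, and 9.77% of all genes were lower. Genotypes did not overlap, with KI higher, for 5 of 19 cytosolic and 2 of 16 mitochondrial genes, against 11.7% of all genes. DESeq2 called 1, Wars, higher, where it called 3.06% of all genes higher and 3.87% lower. limma-voom called 0 members, with 0.839% of all genes higher and 1.7% lower. The median log2 difference was 0.10 for cytosolic and 0.18 for mitochondrial genes, against 0.02 over all genes. Without KI LIF/2i replicate 1 the order turned, with 0.138 for cytosolic and 0.081 for mitochondrial genes, and leaving out other single libraries gave mitochondrial medians of up to 0.237.

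Wars had 178, 123 and 124 CPM in KI cells in LIF/2i and 81.5, 89.1 and 69.0 CPM in WT cells in LIF/2i, with no overlap. Its log2 difference was 0.82 ± 0.22 (edgeR adjusted p = 0.073), and 4 of 24 alternatives called it. One of these left out KI LIF replicate 1 (adjusted p = 0.0325). Without KI replicate 1 in both media it was smaller and passed the threshold, at 0.61 (adjusted p = 0.0187). In LIF the genotypes overlapped for Wars, with a log2 difference of 0.11 ± 0.24 (edgeR adjusted p = 0.917). Wars lies on chromosome 12 (108860034 to 108893197, GRCm38), the chromosome of Eif2s1 (78861819 to 78887010). Whether position bears on its level was not tested.

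Rars2, the mitochondrial arginyl enzyme, had 85.8, 83.5 and 89.0 CPM in KI cells in LIF/2i and 64.3, 72.6 and 62.6 CPM in WT cells in LIF/2i, with no overlap. The log2 difference was 0.37 ± 0.12 (edgeR adjusted p = 0.123). In LIF it had 99.7, 87.2 and 97.3 CPM in KI cells and 85.6 and 83.7 CPM in WT cells. Hars2, the mitochondrial histidyl enzyme, had 23.0, 28.3 and 38.3 CPM in KI cells in LIF/2i and 20.5, 22.7 and 21.6 CPM in WT cells in LIF/2i, again apart. Its log2 difference was 0.46 ± 0.21 (edgeR adjusted p = 0.232). Rars2 and Hars2 were the 2 of 16 mitochondrial genes apart with KI higher, a share near the 11.7% of all genes. KI replicate 3 stood highest, and without it the difference in LIF/2i was 0.24 (adjusted p = 0.57). In LIF Hars2 had 23.2, 25.0 and 28.4 CPM in KI cells and 21.7 and 20.2 CPM in WT cells. Cars, at 211, 224 and 220 CPM in KI cells and 152, 186 and 164 CPM in WT cells in LIF/2i, had a log2 difference of 0.38 ± 0.14 (edgeR adjusted p = 0.149), of opposite sign to that in LIF.

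Cars2, the mitochondrial cysteinyl enzyme, turned on a single replicate number. It had 65.8, 38.6 and 28.2 CPM in KI cells in LIF/2i and 55.9, 48.5 and 52.3 CPM in WT cells in LIF/2i, with a log2 difference of -0.23 ± 0.30 (edgeR adjusted p = 0.691). In LIF it had 66.1, 32.8 and 36.4 CPM in KI cells and 39.1 and 39.7 CPM in WT cells. KI replicate 1 was the highest KI library in both media. Without it in both media, KI was called lower in LIF/2i, at -0.65 (adjusted p = 0.04). Cars2 was singled out after its values were seen.

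**Figure D5:**
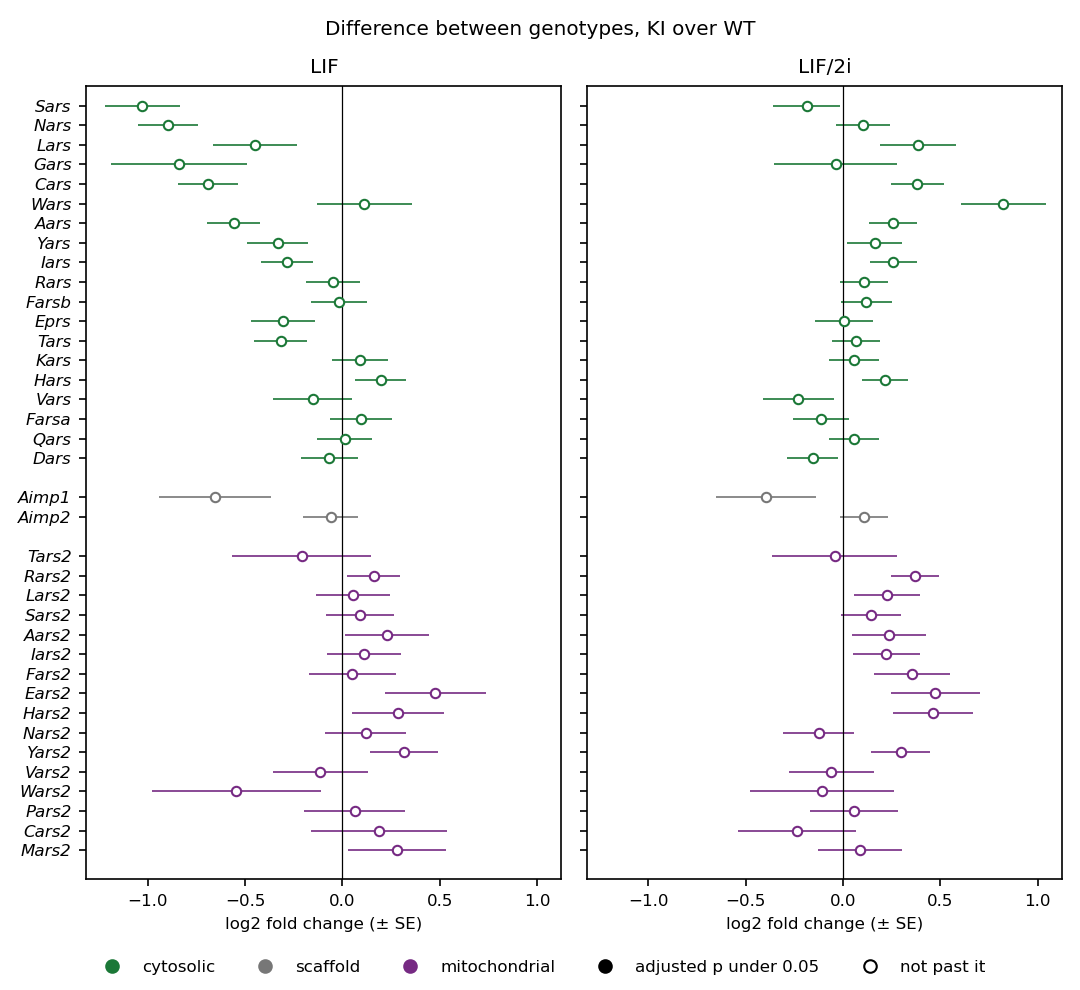
Log2 fold change between genotypes, KI over WT, with its SE, for each member in LIF and in LIF/2i. All points are open, since none passed an adjusted p of 0.05. In LIF Sars, Nars, Gars, Cars and Aars lie lowest among the cytosolic genes, and in LIF/2i Wars lies highest.

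Whether the genotype difference itself changed with the medium was tested by the interaction. edgeR called 0 of 37 members and 0% of all genes in either direction, and the smallest adjusted p among the members was 0.393. The larger difference between media in WT cells than in KI cells was therefore not established gene by gene. At an unadjusted p under 0.05 there were 8 cytosolic genes, all negative, against 3.33% of all genes negative and 2.65% positive. They were Cars (-1.07 ± 0.21), Nars (-1.0 ± 0.21), Sars (-0.84 ± 0.26), Lars (-0.83 ± 0.29), Aars (-0.82 ± 0.18), Wars (-0.71 ± 0.32), Iars (-0.54 ± 0.18) and Yars (-0.50 ± 0.21). DESeq2 called 3 of them, Aars, Cars and Nars, where it called 0.111% of all genes negative and 0.077% positive, and limma-voom called 0 members and 0% of all genes. The median interaction was -0.38 for cytosolic, -0.05 for mitochondrial and -0.03 for all genes. All 11 ATF4-reported synthetases were below 0, with a median of -0.80, while the other 8 cytosolic genes had a median of 0.01. Because this list was made with earlier results of these data known, the split is a description and no independent test.

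The factor and its other targets were counted beside the synthetases. Atf4 had 263, 331 and 389 CPM in KI cells in LIF, 391 and 387 in WT cells in LIF, 250, 351 and 382 in KI cells in LIF/2i and 258, 259 and 213 in WT cells in LIF/2i. It was higher in LIF than in LIF/2i in WT cells, by 0.68 ± 0.20 on the log2 scale (edgeR adjusted p = 0.0427), and the KI log2 difference was 0.00 ± 0.18. Of 30 ATF4 targets of amino acid supply 29 were tested, Slc7a11 being under the filter. In WT cells edgeR called 13 of 29 higher in LIF and 0 lower, against 6.3% and 6.65% of all genes. DESeq2 called 16 higher, against 7.71% of all genes, and limma-voom 15, against 6.84%. Each called 1 lower, against 9.02% and 6.95% of all genes. In KI cells edgeR called 1 higher and 2 lower, shares near the 4.05% and 5% of all genes. The higher one was Cebpb, and the lower ones were Asns and Slc7a1. Psat1, an enzyme of serine synthesis, had 303 and 181 CPM in WT cells in LIF and 60.7, 77.7 and 90.3 CPM in WT cells in LIF/2i, apart and 1.67 higher on the log2 scale (edgeR adjusted p = 0.000968).

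In LIF, 4 of the 29 targets were called lower in KI than in WT cells by edgeR, against 0.129% of all genes. They were Pck2, Asns, Psph and Psat1. DESeq2 called 10 lower, against 1% of all genes, and limma-voom 1, against 0.068%. Of the 29, 27 were below 0, with a median of -0.93. In LIF/2i 13 were above and 16 below 0 in KI against WT cells, with a median of -0.16. There edgeR called 1, Slc7a3, higher and 0 lower, against 0.975% and 1.24% of all genes. The 11 ATF4-reported synthetases had a median of 0.16 there. In the interaction 26 of the 29 were below 0, with a median of -0.73, and edgeR called 0. Asns makes asparagine, the amino acid that Nars charges. It had 292, 198 and 180 CPM in KI cells in LIF and 934 and 513 CPM in WT cells in LIF, with a log2 difference of -1.70 ± 0.26 (edgeR adjusted p = 0.0311). In KI cells in LIF/2i Asns had 1385, 963 and 964 CPM. Its log2 difference of LIF from LIF/2i in KI cells was -2.31 ± 0.25 (edgeR adjusted p = 0.000469). Between media Asns and Nars differed in sign in WT cells. Asns had 1217, 1303 and 1183 CPM in WT cells in LIF/2i, above both LIF samples, with a log2 difference of LIF from LIF/2i of -0.77 (edgeR adjusted p = 0.0827).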

How the data were processed

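The members and gene lists were chosen with earlier results of these data known. RNA was measured in 12 libraries, and the authors deposited raw counts per gene over the coding sequence of 1 transcript each, per the file headers. Tools named in the submitters' processing notes are UMI-tools 1.0.1, Bowtie 1.3.0 and cutadapt 3.4. Not given in the sources used here are the genome build, the counting tool and the handling of strand, molecular identifiers and multiply matching reads, so overlapping genes are uncertain. Transcripts were matched to GENCODE release M21 (GRCm38; 22155 of 22416), which gave coding lengths for TPM and coordinates. WT LIF replicates 1 and 3 had a chi-square of 0.858 per degree of freedom and entered as their mean.

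Genes were kept with filterByExpr at a minimum count of 10 (13229 of 22416), scaled by TMM, with factors of 0.946 to 1.04. The model (R 4.3.3, edgeR 4.0.16, robust glmQLFit) had 1 mean per group over 11 samples and a biological coefficient of variation of 0.234. Contrasts had a two-sided quasi-likelihood F test, with p-values adjusted by Benjamini-Hochberg and a threshold of 0.05. SEs are from the F statistic. The script was tested on simulated data. Values in every sample are given for called members, the 4 members with the smallest p in each comparison, the scaffold genes and the 2 highest members per compartment. Alternatives were DESeq2 1.42.0, limma-voom (limma 3.58.1), other scalings, filters and sample sets, a replicate block, and leaving out libraries. KI replicate numbers 1 and 2 pair across media by the data (correlations of deviations 0.499 and 0.373), not by the labels. For KI replicate 3 the correlation was 0.22, but LIF replicate 3 with LIF/2i replicate 2 had 0.214, so that pairing was not resolved. Elsewhere at least 1 same-numbered pair fell under 0.1.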

Additional observations from a re-analysis of the deposited data

How the results depend on the processing

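Among recomputed counts and medians, 326 stayed close to the reported value, 21 counts had more calls, 5 had fewer and 8 medians moved. Close means, for a median, a shift under its SD between replicates, 0.112 for cytosolic and 0.106 for mitochondrial genes. For counts it allows some change, so 8 and 10 calls are close. Settings that left out libraries outside a comparison are included. Among member values, 608 kept their direction and side of the threshold, 35 gained a call, 24 lost one and 1 reversed. For LIF against LIF/2i in WT cells, 8 members were called, 3 of them without WT LIF replicates 1 and 3 and 2 without WT replicate 2 in both media; leaving out 1 library gave 5 to 10. The cytosolic median of 0.326 was 0.446 without WT LIF replicate 2 and 0.456 without WT replicate 2 in both media, and leaving out 1 library gave 0.314 to 0.446. For LIF against LIF/2i in KI cells, 0 were called, but 1 by DESeq2, with only the groups compared, and with the replicate block (12 libraries or KI libraries alone); leaving out 1 library gave 0 to 1. For KI against WT in LIF, 0 were called, but 1 with library totals alone, a minimum count of 30 or only the groups compared, 2 with no filter or without KI replicate 1 in both media, and 4 with DESeq2, with 12 libraries counted separately or with the replicate block; leaving out 1 library gave 0 to 2. Its cytosolic median of -0.285 was -0.135 without WT LIF replicates 1 and 3 and -0.417 without WT replicate 2 in both media; leaving out 1 library gave -0.419 to -0.19. For KI against WT in LIF/2i, 0 were called, but 1 by DESeq2 and with the replicate block, and 2 without KI replicate 1 in both media; leaving out 1 library gave 0 to 1. For the interaction, 0 were called, but 3 by DESeq2; its cytosolic median of -0.383 was -0.174 without WT LIF replicates 1 and 3 and -0.545 without WT replicate 2 in both media, and leaving out 1 library gave -0.574 to -0.338. The interaction of Mars2, 0.194, was -0.040 without WT LIF/2i replicate 1, and leaving out 1 library gave -0.040 to 0.428. The cause of these shifts was not tested. The fit of only the groups compared has no interaction. With the block 10 members were called between media in WT cells, Gars and Wars being added, as with 12 libraries counted separately. No other member call changed in that comparison. The block over 12 libraries and the fit of 12 libraries counted separately enter WT LIF replicates 1 and 3 as separate samples. Both alternatives that left out a replicate number in both media were chosen after seeing the data. Depth limits Wars2 most, with as few as 9 counts in a library.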

Other observations

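Other genes of tRNA charging, processing and export were counted beside the synthetases. Of 20 such genes, all tested, 1 was called higher in LIF than in LIF/2i in KI cells and 1 in WT cells, the same gene, Dtd1, which removes D-amino acids from mischarged tRNA. As a share of the list this is close to the 4.05% of all genes called higher in KI cells and the 6.3% in WT cells. Dtd1 had 18.7, 19.4 and 23.3 CPM in KI cells in LIF and 7.41, 8.59 and 11.4 CPM in KI cells in LIF/2i, with a log2 difference of 1.16 ± 0.24 (edgeR adjusted p = 0.0109). In WT cells it had 20.9 and 22.9 CPM in LIF and 5.84, 5.06 and 4.56 CPM in LIF/2i, with a log2 difference of 2.07 ± 0.26 (edgeR adjusted p = 0.000919). The interaction of Dtd1, -0.91 ± 0.36, did not pass (edgeR adjusted p = 0.813).

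Between genotypes, 0 of these 20 genes were called in LIF by edgeR, DESeq2 or limma-voom. At an unadjusted p under 0.05 by edgeR, 4 were higher in KI cells in LIF, against 4.99% of all genes. In LIF/2i 1 was called higher in KI than in WT cells, against 0.975% of all genes. It was Pstk, the kinase that prepares seryl-tRNA for selenocysteine, with 53.1, 77.4 and 66.0 CPM in KI cells in LIF/2i and 35.1, 34.4 and 33.5 CPM in WT cells in LIF/2i (log2 difference 0.93 ± 0.21, edgeR adjusted p = 0.0405). In LIF Pstk had 48.8, 84.1 and 74.9 CPM in KI cells and 45.9 and 40.2 CPM in WT cells, again with KI higher in every sample but past no threshold (edgeR adjusted p = 0.3). Of the 20 genes 17 had a log2 difference above 0 in LIF/2i, where the median was 0.29. Over all genes 6898 of 13229 were above 0 and the median was 0.02. Mars, the cytosolic methionyl enzyme, is not among the 37 members and was counted in this panel. It had 455 and 388 CPM in WT cells in LIF and 300, 334 and 273 CPM in WT cells in LIF/2i, with a log2 difference of 0.48 (edgeR adjusted p = 0.0524).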
